A study of Mus musculus with 18 samples.

Results

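Tgm2 encodes tissue transglutaminase (transglutaminase 2) and Plat encodes tissue-type plasminogen activator (tPA), and both genes are known as targets of the retinoic acid receptors (RAR). They were followed across 18 Affymetrix arrays of NaF cells, a mouse mammary carcinoma line, by taking every probe set that carried 1 of the 2 gene symbols. Each gene had 1 probe set, 17393789 for Tgm2 (Entrez 21817) and 17499962 for Plat (Entrez 18791), so that 2 of the 22180 genes tested are described. On the GRCm38.p6 assembly Tgm2 lies on chromosome 2 and Plat on chromosome 8. The genome build behind the array values is not given in the sources used here, so no positions are given.

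The arrays formed 6 groups of 3, all from NaF cells. A first set of 12 arrays came from cells kept for 48 hours in DMEM with 10% charcoal-treated FBS, from which charcoal removes lipophilic hormones and retinoids. Of these, 3 were controls, and 3 each had received all-trans retinoic acid, the synthetic RAR agonist TTNPB, or the PPARδ agonist GW1516, at 1 µM for 6 hours. The other 6 arrays came from cells in full medium (DMEM with 10% FBS), 3 untreated and 3 given the saturated fatty acid palmitate at 10 µM for 6 hours. The series was set up to examine how RAR and PPARδ ligands change gene expression in this line, and the title of the series also names FABP5, a carrier protein for fatty acids. NaF is a single line grown in culture, and the labels do not say whether the replicates were separate cultures, so every p-value reflects the spread among arrays, which may be technical.

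Retinoic acid enters the nucleus, binds RAR, which sits on DNA with RXR, and so turns on genes that carry a response element. Transglutaminase 2 is a calcium-dependent enzyme that joins glutamine and lysine side chains of proteins. It is found in the cytosol, at the cell surface and in the matrix, although it lacks a classical secretion signal, and it also binds and hydrolyses GTP. Tissue-type plasminogen activator is a secreted serine protease that cleaves plasminogen to plasmin, the protease that dissolves fibrin and also acts on matrix proteins.

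Values are the log2 expression values deposited by the authors. Array medians lay between 1.06 and 1.32 in the charcoal set and between 0.47 and 0.55 in full medium, so levels are compared only within a serum, each ligand against the control of its own serum. The 3 charcoal comparisons share the same 3 control arrays and are not independent of one another. GW1516 replicate 3 stood farther from its group mean (0.231 on average over genes) than the other arrays (0.0816 to 0.145). Palmitate replicate 2 was within that range (0.113), the farthest of the full-medium arrays, and held the lowest Plat value of its group (3.36). An alternative setting left out both arrays. This also changes the shared estimate of spread in comparisons that use neither of them. Background was taken from 1390 olfactory and vomeronasal receptor genes, as the 95th percentile of their group means, and came to 1.15 to 1.31 in the charcoal groups and to 0.59 and 0.63 in full medium. Tgm2 and Plat were above it in all 6 groups.

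As a check of the cell type, 5 of 6 epithelial markers were above background in charcoal controls. Krt18 was at 7.99 ± 0.05 (SD, n = 3), while Epcam, at 1.51 beside a background of 1.31, was barely measurable. All 4 adipocyte markers were at or under background there, as were the T-cell receptor complex genes Cd3e, Cd3d and Cd3g, the macrophage markers Adgre1, Csf1r and Lyz2, and the endothelial markers Pecam1, Kdr, Tek and Tie1. Of the same lists, those above background were the endothelial cadherin gene Cdh5 at 8.90 ± 0.09, the macrophage marker Cd68 at 1.82 ± 0.25 and the general leukocyte marker Ptprc at 1.46 ± 0.04. The fibroblast marker Pdgfra, at 4.88 ± 0.30, and the basal marker Trp63, at 1.53 ± 0.14, were each the 1 measured member of their list above it. Of 32 measured marker genes of 7 cell types, none passed the limma test in any ligand comparison (4, 2, 3 and 0 had an unadjusted p under 0.05 with retinoic acid, TTNPB, GW1516 and palmitate). Of all 22180 genes, 1174, 279, 570 and 151 passed in the same order. At such shares few or none of 32 genes would pass, so this count does not show that the markers were unchanged. The summed log2 level of the 5 endothelial markers, a list of interest because endothelial cells are a known source of both enzymes, ran from 12.6 to 13.5 in charcoal controls and was lower with retinoic acid (12.3 to 12.4), TTNPB (12.3 to 12.5) and GW1516 (12.3 to 12.5). Cdh5 itself changed by -0.17, -0.46 and -0.69 (adjusted p = 0.830, 0.580 and 0.192). The summed level of the 5 macrophage markers was likewise lower without overlap, at 6.09 to 6.21 in charcoal controls, 5.36 to 5.88 with retinoic acid, 5.32 to 5.64 with TTNPB and 5.29 to 5.96 with GW1516. Adgre1, Csf1r and Lyz2 in this sum, and all but Cdh5 in the endothelial sum, were at or under background in every charcoal group. Background itself was 1.31 in charcoal controls and 1.15 with retinoic acid. How often sums of other genes part in this way was not tested. The fibroblast sum was higher with retinoic acid (9.26 to 9.55) than in controls (8.54 to 9.19), and the epithelial sum was higher with TTNPB (19.5 to 19.8) than in controls (18.8 to 19.1). The other sums in charcoal serum overlapped with those of the controls. The part of these markers in the results for Tgm2 and Plat was not tested.

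Tgm2 rose with each of the 3 ligands given in charcoal serum, most with retinoic acid. Its log2 value was 7.40, 7.33 and 7.39 on the 3 charcoal control arrays, a mean of 7.38 ± 0.039 (SD, n = 3). With retinoic acid it was 8.03, 8.20 and 8.10, a mean of 8.11 ± 0.086. All 3 retinoic acid arrays were above all 3 controls, as were those of 12.9% of all genes. The rise was 1.66-fold (log2 change 0.73 ± 0.08 SE, 95% interval 0.57 to 0.90, adjusted p = 2.81e-05), and 98.3% of the genes tested had a log2 change below it. By the same test, limma with Benjamini-Hochberg adjustment over all genes, 3.82% of genes rose with retinoic acid. Tgm2 ranked 23rd of all genes by p-value but 386th by the size of its rise.

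With TTNPB, Tgm2 was at 7.80, 7.92 and 7.92, a mean of 7.88 ± 0.070 (SD, n = 3). These 3 arrays again lay above every control, as in 8.83% of all genes, and the rise was 1.42-fold (log2 change 0.50 ± 0.08 SE, interval 0.33 to 0.67, adjusted p = 0.00277). Over all genes, 0.618% rose with TTNPB. The call was lost with arrays centred on their medians (adjusted p = 0.0553). The TTNPB and retinoic acid arrays did not overlap either, the highest TTNPB array standing at 7.92 and the lowest retinoic acid array at 8.03.

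GW1516, which is not a retinoid, also raised Tgm2. Its 3 arrays were at 7.68, 7.87 and 7.73, a mean of 7.76 ± 0.098 (SD, n = 3), all above the controls, as in 8.25% of all genes, and within or below the range of the TTNPB arrays. The rise was 1.30-fold (log2 change 0.38 ± 0.08 SE, interval 0.22 to 0.55, adjusted p = 0.0154), where 1.89% of all genes rose with GW1516. The call was kept when the 12 charcoal arrays were fitted alone (adjusted p = 0.0379). It was lost when only the 6 arrays compared were fitted (0.335), with arrays centred on their medians (0.0779) and without charcoal control replicate 2 (0.0674), while without GW1516 replicate 3 it was 0.00751.

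**Figure D1:**
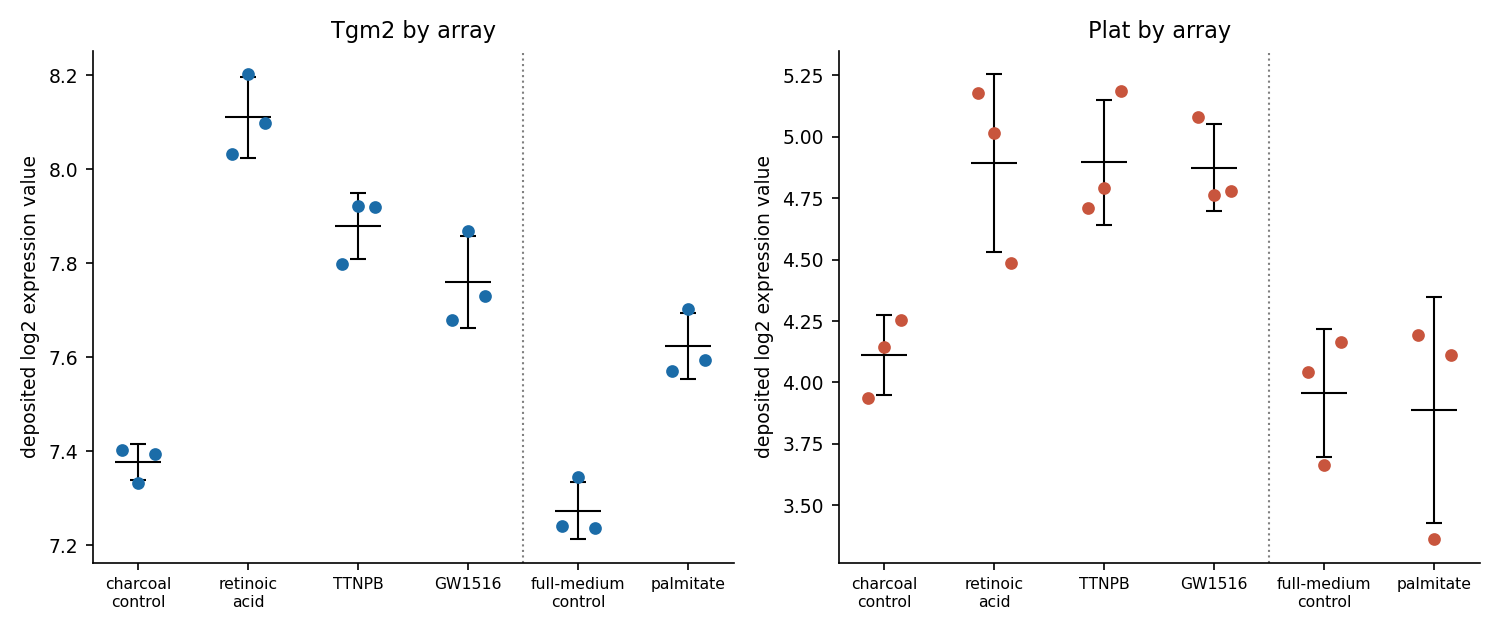
Deposited log2 expression value (vertical axis, a separate range for each gene) of Tgm2 and Plat on the 18 arrays, with points for arrays and black bars for the group mean and SD (n = 3). A dotted line parts charcoal serum from full medium, whose levels are not compared. Tgm2 stepped down from retinoic acid (mean 8.11) to TTNPB (7.88), GW1516 (7.76) and charcoal control (7.38), whereas Plat stood near 4.9 with all 3 ligands and at 4.11 in controls.

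Plat had nearly the same mean with all 3 ligands, each above the charcoal controls, and its arrays were spread more widely than those of Tgm2. After adjustment over all genes it passed with retinoic acid alone. The 3 controls were at 3.93, 4.14 and 4.25, a mean of 4.11 ± 0.16 (SD, n = 3). With retinoic acid the values were 5.18, 5.02 and 4.49, a mean of 4.89 ± 0.36. Replicate 3 was the low one, yet it was still above the highest control, and 12.9% of all genes had retinoic acid arrays above every control. The rise was 1.72-fold (log2 change 0.78 ± 0.22 SE, interval 0.32 to 1.24, unadjusted p = 0.00212 and adjusted p = 0.0432 by limma).

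This was close to the size of the Tgm2 rise, with a standard error of 0.22 against 0.08, and Plat ranked 1086th by p-value among the 1174 genes that passed with retinoic acid. The call was lost without any 1 of 5 of the 6 arrays compared: adjusted p was 0.152, 0.108 and 0.0658 without charcoal control replicates 1, 2 and 3, and 0.213 and 0.170 without retinoic acid replicates 1 and 2. It was also lost with arrays centred on their medians (0.0751). Without the low retinoic acid replicate 3, the log2 change was 0.99 and adjusted p was 0.0210.

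With TTNPB, Plat was at 4.71, 4.79 and 5.19, a mean of 4.90 ± 0.25 (SD, n = 3). The 3 arrays lay above every control, as in 8.83% of all genes. The difference of 1.72-fold (log2 change 0.78 ± 0.22 SE, interval 0.33 to 1.24) had an unadjusted p of 0.00209 by limma and did not pass over all genes (adjusted p = 0.0953). With retinoic acid the unadjusted p was 0.00212, so these comparisons parted only at the adjustment over all genes. There 1174 genes passed with retinoic acid and 279 with TTNPB. The Plat difference with TTNPB did pass when the 6 arrays were fitted alone (adjusted p = 0.0320), after quantile normalization (0.0187) and with array weights (0.0426).

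With GW1516, Plat was at 5.08, 4.76 and 4.78, a mean of 4.87 ± 0.18 (SD, n = 3). All 3 arrays were again above the controls, as in 8.25% of all genes. The 1.70-fold difference (log2 change 0.76 ± 0.22 SE, interval 0.30 to 1.22, adjusted p = 0.0719) did not pass. It passed after quantile normalization (adjusted p = 0.0227), with array weights (0.0165), without dim genes (0.0453) and without GW1516 replicate 3 and palmitate replicate 2 together (0.0283). In size, the Plat changes stood high among all genes: 98.5% had a lower log2 change with retinoic acid, 99.7% with TTNPB and 99.2% with GW1516.

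**Figure D2:**
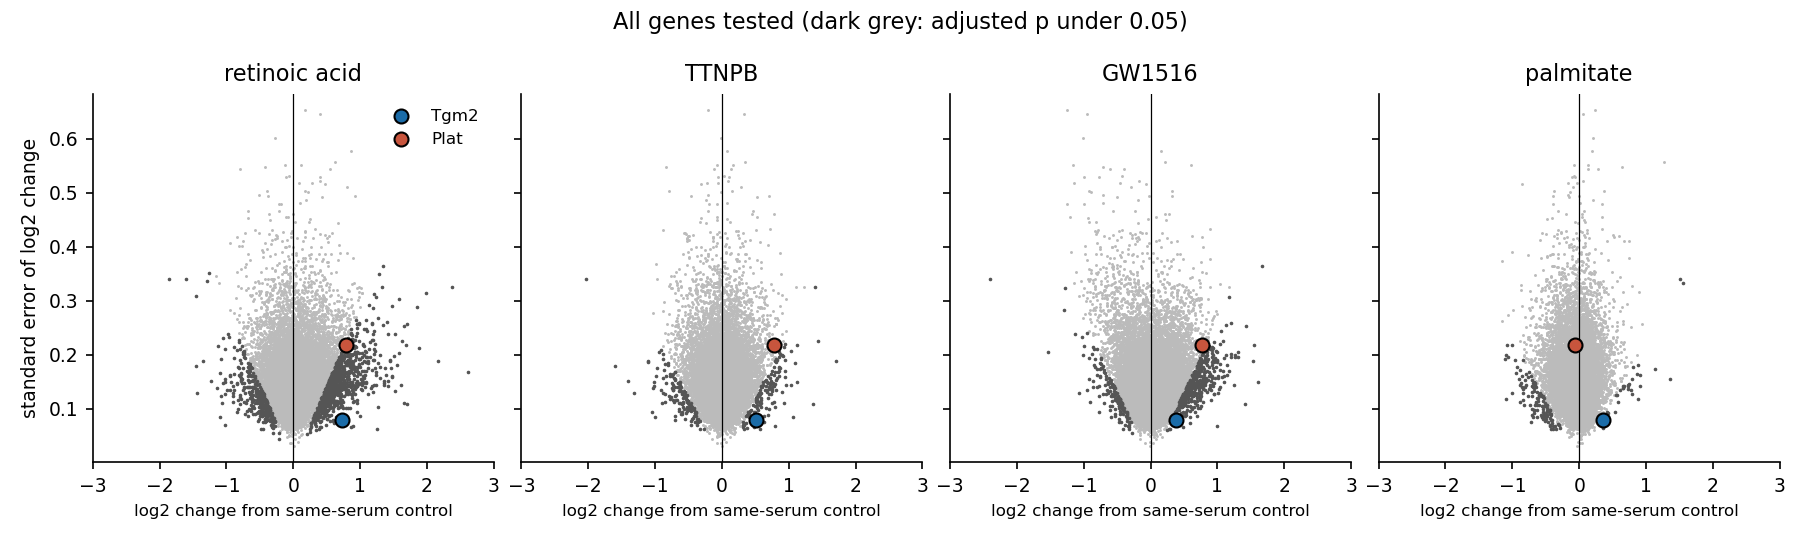
Each of the 22180 genes by its log2 change from the same-serum control (horizontal axis) and the standard error of that change (vertical axis), for the 4 ligands, with genes at adjusted p under 0.05 in dark grey. Tgm2 (blue) sits low, at a standard error of 0.08, and Plat (red) at 0.22. Plat has nearly the same change with retinoic acid (0.78), TTNPB (0.78) and GW1516 (0.76). It lies at the inner edge of the dark points with retinoic acid, where 1174 genes passed. With TTNPB (279 genes passed) and GW1516 (570) it lies just outside them.

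Set directly against one another at the matched dose and time, the 3 charcoal ligands did not differ in either gene by the test. Retinoic acid and TTNPB are both RAR agonists, with aromatic rings in TTNPB in place of much of the polyene chain of retinoic acid. Tgm2 was 1.17-fold higher with retinoic acid than with TTNPB (log2 difference 0.23 ± 0.08 SE, 95% interval 0.06 to 0.40). The interval lay above 0 and the arrays did not overlap, as in 9.64% of all genes in that direction, but the difference did not pass over all genes (unadjusted p = 0.00951 and adjusted p = 0.443 by limma). For Plat the difference between these compounds was 0.00 ± 0.22, with an interval from -0.46 to 0.46, which leaves room for differences of up to 0.46 in either direction.

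Retinoic acid against GW1516 gave the larger contrast for Tgm2, 1.28-fold (log2 difference 0.35 ± 0.08 SE, interval 0.18 to 0.52, adjusted p = 0.0727). The 3 arrays of each group were apart, as in 6.28% of all genes. This difference passed with array weights (adjusted p = 0.0142), without dim genes (0.0356), without GW1516 replicate 2 (0.0434) and without GW1516 replicate 3 and palmitate replicate 2 together (0.0462). TTNPB against GW1516 gave 0.12 ± 0.08 for Tgm2 (interval -0.05 to 0.29, adjusted p = 0.617), with overlapping arrays. The order of Tgm2 levels was thus retinoic acid, TTNPB, GW1516 and control, and of the neighbours in it only GW1516 and control differed by the test.

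For Plat, retinoic acid and GW1516 differed by 0.02 (interval -0.44 to 0.48) and TTNPB and GW1516 by 0.02 (-0.44 to 0.48), with adjusted p of 0.988 and 0.982 by limma. Of the 22180 genes, 0.153% differed between retinoic acid and TTNPB, 0.352% between retinoic acid and GW1516 and 0.0676% between TTNPB and GW1516. Cyp26b1, a classical RAR target whose product breaks down retinoic acid, differed between retinoic acid and each of the others (adjusted p = 1.13e-05 against TTNPB and 7.65e-08 against GW1516). It was at 6.03 ± 0.19 (SD, n = 3) with retinoic acid, 4.01 ± 0.33 with TTNPB, 3.41 ± 0.10 with GW1516 and 3.41 ± 0.30 in controls.

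**Figure D3:**
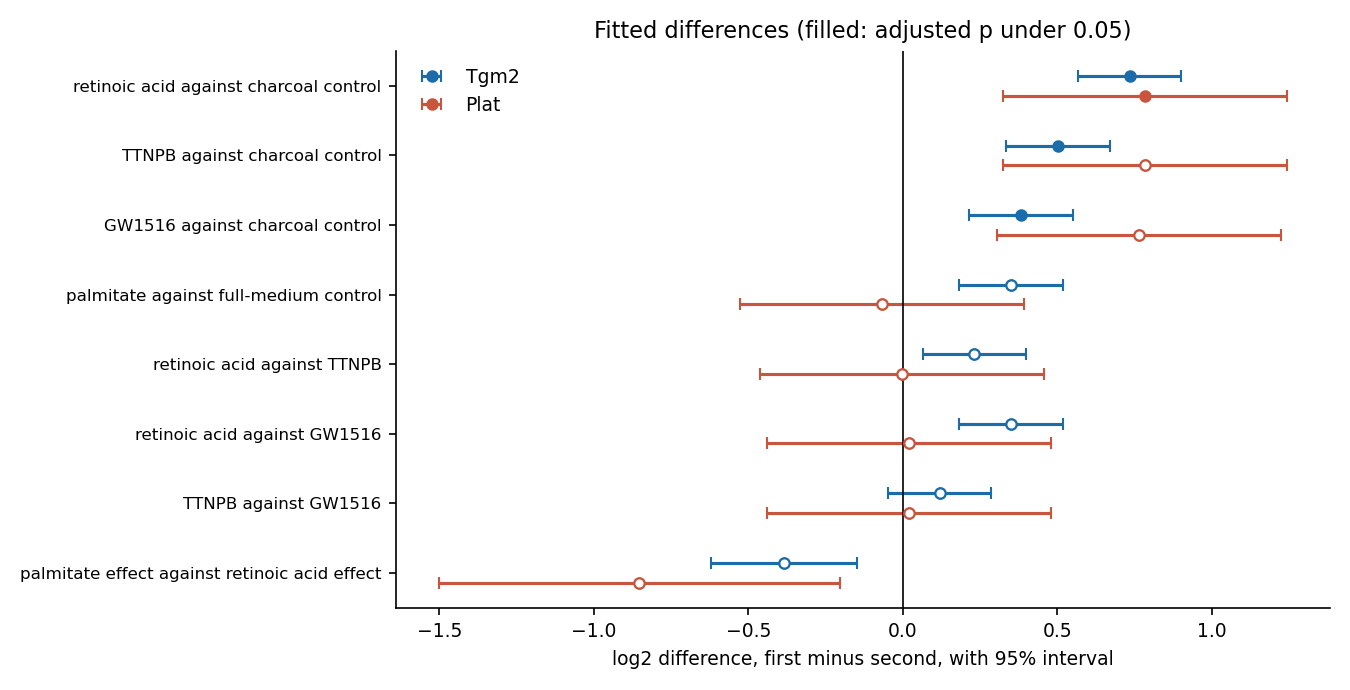
Fitted log2 differences (horizontal axis, first group minus second, with 95% intervals) of Tgm2 in blue and Plat in red for each comparison, with filled points at adjusted p under 0.05. Tgm2 passed against control with retinoic acid (0.73), TTNPB (0.50) and GW1516 (0.38), Plat with retinoic acid alone (0.78), and no direct comparison of ligands passed for either gene.

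Palmitate, given in full medium at 10 µM, went with higher Tgm2 just short of the threshold and with no measurable shift of Plat. Tgm2 was at 7.24, 7.34 and 7.24 on the full-medium control arrays (7.27 ± 0.061 SD, n = 3) and at 7.57, 7.70 and 7.60 with palmitate (7.62 ± 0.070). The arrays did not overlap, and those of 6.46% of all genes were likewise higher without overlap. The difference was 1.27-fold (log2 change 0.35 ± 0.08 SE, interval 0.18 to 0.52), with an unadjusted p of 0.000356 and an adjusted p of 0.0510 by limma.

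By the same test 0.144% of all genes rose with palmitate, and 98.6% had a log2 change below that of Tgm2. The side of the threshold on which Tgm2 fell depended on the setting. It passed with a robust prior (adjusted p = 0.0423), with array weights (0.00575), without dim genes (0.0238) and without GW1516 replicate 3 and palmitate replicate 2 together (0.0419), and it did not pass without any single array (0.0859 to 0.221).

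Plat was at 4.04, 3.66 and 4.16 in full-medium controls (3.96 ± 0.26 SD, n = 3) and at 4.19, 3.36 and 4.11 with palmitate (3.89 ± 0.46). Replicate 2 was the lowest array of both groups, and the groups overlapped. The log2 change was -0.07 ± 0.22 (SE, interval -0.53 to 0.39, adjusted p = 1 by limma), and its sign changed without palmitate replicate 2 (0.19).

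The palmitate effect was also set against the retinoic acid effect, each relative to its own control, since the sera cannot be compared by level. For Tgm2 the palmitate effect was smaller by 0.38 (log2 difference -0.38 ± 0.11 SE, interval -0.62 to -0.15, adjusted p = 0.0860 by limma). For Plat the difference was -0.85 ± 0.31 (interval -1.50 to -0.20, adjusted p = 0.198). Neither passed over all genes, among which 2.07% had a lower palmitate effect by the test. The Tgm2 difference passed with only the 12 arrays of these 4 groups (adjusted p = 0.0337), with array weights (0.0163), without dim genes (0.0421) and without GW1516 replicate 3 and palmitate replicate 2 together (0.0163). Dose and ligand differed between these effects as well as serum.

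**Figure D4:**
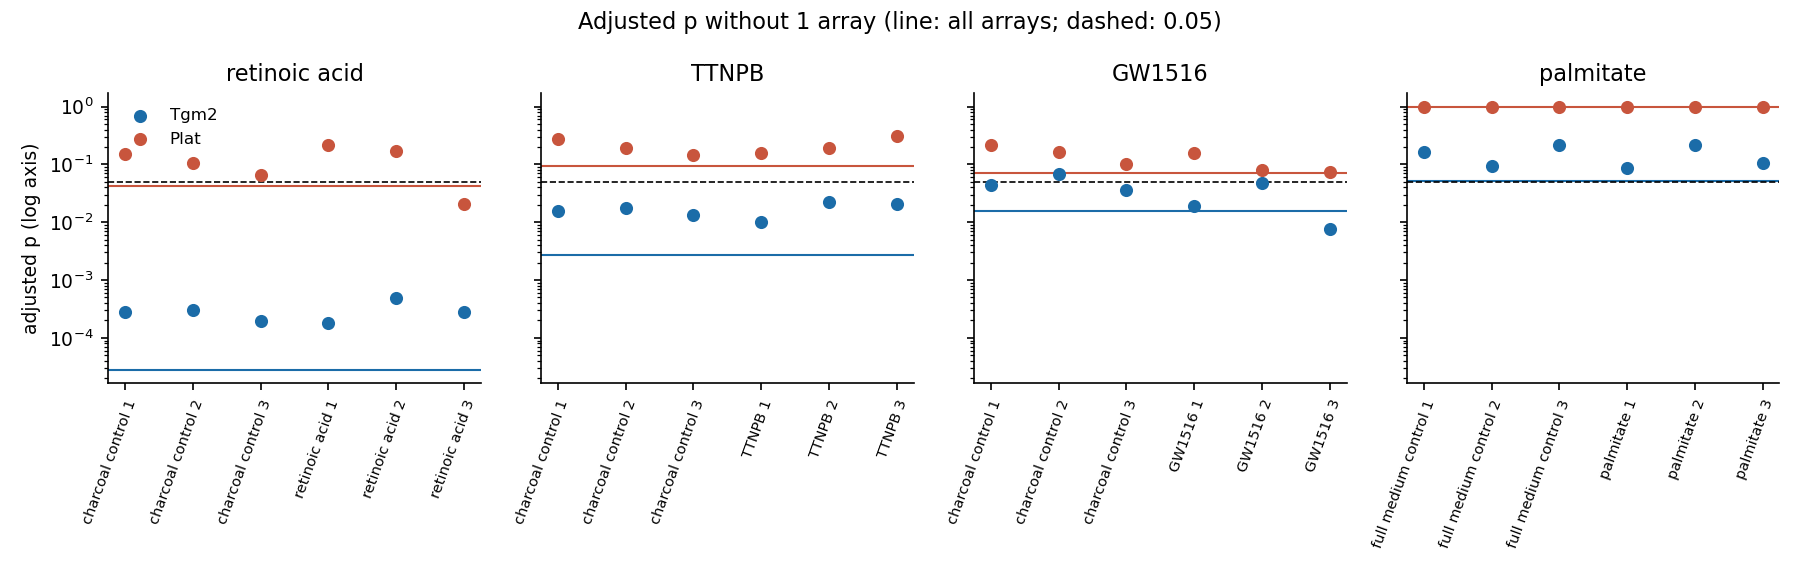
Adjusted p (log axis) of Tgm2 in blue and Plat in red when 1 array of a comparison is left out (points, named on the horizontal axis), with all arrays (coloured lines) and the threshold of 0.05 (dashed). Tgm2 stayed under the threshold in all 6 cases with retinoic acid and with TTNPB, in 5 of 6 with GW1516 and in none with palmitate, and Plat was under it in 1 of 6 with retinoic acid.

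No other measured gene of the plasminogen system passed the test beside Plat. Of 22 other genes of plasminogen activation 17 were measured, of which 10 were above background in at least 1 group. None of the 17 passed with retinoic acid, TTNPB, GW1516 or palmitate by limma (0, 1, 1 and 1 had an unadjusted p under 0.05). Their median log2 change with retinoic acid was -0.02, beside -0.03 for all genes. Of all genes, 3.82% rose with retinoic acid, 0.618% with TTNPB, 1.89% with GW1516 and 0.144% with palmitate. A list of 17 genes would hold under 1 at each share. When the 6 arrays compared were fitted alone, with array weights, and without GW1516 replicate 3 and palmitate replicate 2 together, 1 member passed with retinoic acid. With TTNPB, 1 member passed on the 6 arrays compared and without that pair of arrays. With GW1516, 1 passed without GW1516 replicate 1 or 2, and with palmitate, 1 passed with array weights and without that pair. Plau, which encodes the other plasminogen activator, urokinase, was dim at 1.71 ± 0.05 in charcoal controls (SD, n = 3, background 1.31) and changed by 0.07 with retinoic acid (adjusted p = 0.897). Plaur, the urokinase receptor gene, was at 2.10 ± 0.08 and changed by 0.03 (adjusted p = 0.967). Plg, the gene of the substrate plasminogen, was under background in all 6 groups.

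Annexin A2 and S100A10 form a surface complex that binds tPA and plasminogen. Anxa2 was well expressed, at 8.55 ± 0.06 in charcoal controls, and changed by 0.14 with retinoic acid (adjusted p = 0.662), 0.27 with TTNPB (0.413) and -0.02 with GW1516 (0.956). S100a10, at 9.90 ± 0.11, changed by -0.20 (adjusted p = 0.325), -0.13 (0.728) and -0.32 (0.0939) in the same order. Lrp1, which encodes an endocytic receptor that clears tPA, changed by 0.19 with retinoic acid (adjusted p = 0.415). Pdgfc, whose product is a growth factor that tPA can activate by cleavage, was at 6.69 ± 0.28 in charcoal controls and changed by 0.01 with retinoic acid (adjusted p = 0.988) and by -0.59 with palmitate (0.127).

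In the transglutaminase family, Tgm2 was the member with signal well above background. Of the 8 others (Tgm1, Tgm3, Tgm4, Tgm5, Tgm6, Tgm7, F13a1 and Epb42), 4 exceeded background in at least 1 group, and none passed in any of the 4 ligand comparisons (0, 1, 0 and 0 had an unadjusted p under 0.05 by limma, in the order retinoic acid, TTNPB, GW1516 and palmitate). By the same test 3.82%, 0.618%, 1.89% and 0.144% of all genes rose in that order. At such shares a list of 8 genes would mostly hold none. Tgm1, the keratinocyte transglutaminase gene, stood at 1.47 ± 0.12 in charcoal controls and changed by -0.11 with retinoic acid (adjusted p = 0.807). F13a1, which encodes the A chain of the clotting transglutaminase factor XIII, was under background.

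Of 19 measured partners, substrates and regulators of transglutaminase 2, 10.5% rose with retinoic acid, beside 3.82% of all genes, with a median of 0.03 over the list. The 2 that rose were Lrp5, which encodes a Wnt co-receptor bound by transglutaminase 2, by 0.41 ± 0.07 (SE, adjusted p = 0.00110), and Rb1, the retinoblastoma tumour suppressor gene, by 1.21 ± 0.25 (adjusted p = 0.00589). The count of 2 became 5 with the 6 arrays compared fitted alone and with array weights, and 6 without GW1516 replicate 3 and palmitate replicate 2 together. Lrp5 was also the 1 member that rose with TTNPB (0.32, adjusted p = 0.0201), and with GW1516 the related co-receptor gene Lrp6 rose by 0.66 (adjusted p = 0.0474), beside 0.618% and 1.89% of all genes that rose with these ligands. On the 12 charcoal arrays alone no member passed with either. With TTNPB none passed with the replicate block, with centred arrays, without charcoal control replicate 2 or without any single TTNPB array. With GW1516 none passed on the 6 arrays compared or without any single control array. None passed with palmitate, where 0.144% of all genes rose (2 had an unadjusted p under 0.05 by limma). Of the 19 genes, 15 were above background in at least 1 group.

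Fn1, the gene of fibronectin, to which surface transglutaminase 2 binds, was under background in charcoal controls, and so was Adgrg1, the gene of an adhesion receptor that binds the enzyme. Itgb1, the integrin chain that shares fibronectin binding with the enzyme, was at 7.36 ± 0.11 there and changed by 0.18 (adjusted p = 0.440), 0.10 (0.847) and 0.22 (0.311) with retinoic acid, TTNPB and GW1516.

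Among 27 other extracellular proteases and their inhibitors, 7.41% rose with retinoic acid, beside 3.82% of all genes, namely Adam9, a membrane metalloprotease gene, by 0.72 ± 0.11 (SE, adjusted p = 0.000420), and Spint2, which encodes an inhibitor of serine proteases, by 0.47 ± 0.10 (0.00974). Without charcoal control replicate 2 the count fell from 2 to 1. Spint2 rose with TTNPB too (0.53, adjusted p = 0.0119) and had a change of 0.06 with GW1516 (0.844). Adam9 rose with GW1516 (0.54, adjusted p = 0.00937) and had a change of 0.34 with TTNPB (0.146). Over all genes 0.618% rose with TTNPB and 1.89% with GW1516. With TTNPB no member passed with centred arrays or without charcoal control replicate 1 or 2 or TTNPB replicate 1 or 2, and with GW1516 none passed on the 6 arrays compared or without charcoal control replicate 2. None of the 27 passed with palmitate, where 0.144% of all genes rose (1 had an unadjusted p under 0.05 by limma). Only 11 of the 27 were above background in at least 1 group.

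Of 26 other RAR targets and receptor genes measured, 11.5% rose with retinoic acid, beside 3.82% of all genes, that is 3 genes: Cyp26b1 (2.62), the receptor gene Rarb (1.18) and Nrip1 (1.39), which encodes a nuclear receptor corepressor. All 3 had larger log2 changes than Tgm2 and Plat, and the median of the list was -0.02. None of the 26 passed with TTNPB, where 0.618% of all genes rose (3 had an unadjusted p under 0.05 by limma). There Cyp26b1 changed by 0.60 (adjusted p = 0.0969), Rarb by 0.52 (0.179) and Nrip1 by 0.43 (0.273). Of these genes with Tgm2 and Plat, Tgm2 alone passed with both RAR agonists. Yet its change with TTNPB (0.50) was smaller than those of Cyp26b1, Rarb and Plat (0.78). Lrp5 and Spint2, from the other lists, also passed with both.

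With GW1516, Cyp26b1 changed by 0.01 (adjusted p = 0.991), Rarb by 0.16 (0.721) and Nrip1 by 0.43 (0.197), and Rara, a receptor gene, rose by 0.63 (0.0424), where 1.89% of all genes rose. No gene of the list passed with GW1516 on the 12 charcoal arrays or the 6 arrays compared, with the replicate block, after quantile normalization, with centred arrays, without any single control array or without GW1516 replicate 1 or 3. Beside these, Tgm2 had a rise of 0.38 and Plat a change of 0.76. In full medium Rarb and Nrip1 were under background, and Cyp26b1, at 2.04 ± 0.07 in controls, changed by 0.04 with palmitate (adjusted p = 1). None of the 26 passed there, where 0.144% of all genes rose (1 had an unadjusted p under 0.05 by limma). Of the 26, 18 were above background in at least 1 of the 6 groups.

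**Figure D5:**
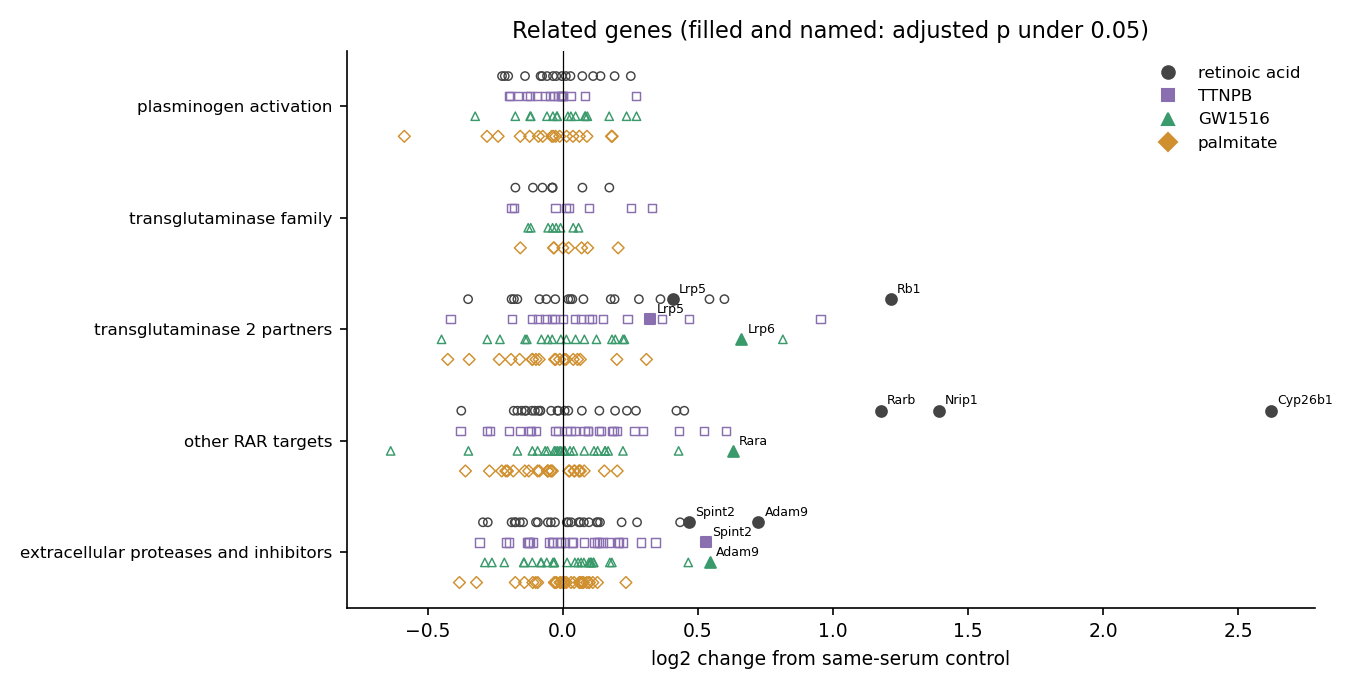
Log2 change from the same-serum control (horizontal axis) of the genes of 5 lists related to Tgm2 and Plat, which are left out, with 1 symbol per gene and ligand and filled, named symbols at adjusted p under 0.05. With retinoic acid, Cyp26b1 (2.62), Nrip1 (1.39), Rb1 (1.21) and Rarb (1.18) moved furthest, and no other gene of plasminogen activation or of the transglutaminase family passed. Over all genes, 3.82% rose with retinoic acid.

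The patterns of Tgm2 and Plat were less like one another than like those of many other genes. Over the 12 charcoal arrays their log2 values had a Pearson r of 0.73 (Spearman 0.57), which placed Plat 765th among 12254 genes above background in likeness to Tgm2 and Tgm2 395th in likeness to Plat. With the group means removed r was -0.09, so no common variation within groups was seen. With so few arrays this r is imprecise and does not show that there was none. These values describe 12 arrays that share 1 control group.

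The 5 genes most like Tgm2 were Epha7 (r = 0.96), an ephrin receptor gene, Sik1 (0.96), which encodes a salt-inducible kinase, Bhlhe40 (0.96), a transcriptional repressor gene, Secisbp2l (0.96) and Cep55 (0.95). They were picked by r over the same charcoal arrays, so a likeness to Tgm2 across the charcoal groups follows from the choice. Epha7 rose by 1.61, 1.04 and 0.82 with retinoic acid, TTNPB and GW1516, in the same order as Tgm2. Bhlhe40 rose by 0.99, 0.63 and 0.52. Sik1 rose by 0.68 and 0.46 with the RAR agonists and had a change of 0.26 with GW1516 (adjusted p = 0.0662). With palmitate, Epha7 changed by 0.06, Sik1 by -0.15 and Bhlhe40 by -0.12, against 0.35 for Tgm2 (adjusted p = 1, 0.730 and 1 for these 3 genes by limma).

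The 5 genes most like Plat were Dennd5b (r = 0.90), Cenpe (0.90), which encodes a kinetochore motor protein, Dctn4 (0.90), a dynactin subunit gene, Paip2 (0.89), which encodes an inhibitor of the poly(A)-binding protein, and Tor3a (0.89). As these genes were likewise picked by r over the charcoal arrays, their likeness to Plat on those arrays follows from the choice. Cenpe rose by 0.79, 0.68 and 0.76 and Paip2 by 0.66, 0.53 and 0.65 with retinoic acid, TTNPB and GW1516, nearly level over the ligands as with Plat. Within groups r with Plat was 0.80 for Dennd5b and between 0.57 and 0.63 for the other 4, so part of this likeness lay in single arrays. For the genes most like Tgm2, r with Tgm2 within groups ran from 0.02 (Bhlhe40) to 0.64 (Cep55). Dennd5b, like Plat, was highest with retinoic acid and GW1516 on replicate 1 (3.32 and 3.11) and with TTNPB on replicate 3 (3.21).

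The genes next to Tgm2 and Plat on the assembly were also read. Of the 3 measured genes on each side of Tgm2 none passed with retinoic acid, a count that the 3.82% of all genes higher with it would also give for 6 genes, and their log2 changes ran from -0.34 (Tti1) to 0.07 (Bpi). Next to Plat, A930013F10Rik rose by 0.76 ± 0.17 (SE, adjusted p = 0.0127) and Ank1, the ankyrin gene, by 0.71 ± 0.20 (0.0424) with retinoic acid, while the nearest measured gene on either side did not pass. These were Ikbkb, which encodes a kinase of NF-κB signalling, with a change of -0.11 (0.807), and Ap3m2, with 0.35 (0.431). With TTNPB and GW1516, A930013F10Rik changed by 0.54 and 0.61 (adjusted p = 0.162 and 0.0683) and Ank1 by 0.18 and 0.30 (0.856 and 0.511), beside 0.78 and 0.76 for Plat.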

How the data were processed

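Expression was measured on 18 arrays of NaF cells. The authors deposited log2 values for every probe set on each array, and these were analysed. Per the submitters' processing notes they were made with Partek. Its version, the background correction and the normalization are not given in the sources used here, and the log2 scale was read from the values. Of 41345 probe sets, 23521 carried 1 gene symbol. Symbols were updated by Entrez number on GRCm38.p6, and the probe set with the highest mean stood for a gene (22180 genes). No gene was filtered.

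Group means were fitted over all 18 arrays with limma 3.58.1 (R 4.3.3), with a variance trend and 12 residual degrees of freedom. P-values were 2-sided and adjusted by Benjamini-Hochberg over all genes of a comparison (threshold 0.05). The fit was tested on simulated data. The number of arrays limits the precision. The 2 genes, the gene lists and the naming rule were chosen with earlier results of these data known. The rule named both genes, up to 5 called members of each list per comparison, 15 fixed genes and the 5 genes most alike by Pearson r over the charcoal arrays among those above background. Genomic neighbours, Pdgfc, Plg and the cell type markers are named outside it, after their values were seen. Alternatives covered the arrays fitted, variance prior, normalization, array weights, dim genes, probe sets and left-out arrays.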

Additional observations from a re-analysis of the deposited data

How the results depend on the processing

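Tgm2 and Plat in 8 comparisons gave 16 results and 298 values under other settings. Of these, 248 kept their direction and their side of the threshold, 10 lost a call, 20 gained one and 20 changed sign. Values below are adjusted p by limma. The Tgm2 rise with retinoic acid kept its call in all 18 other settings. Calls were lost with arrays centred on their medians for Tgm2 with TTNPB (0.0553) and GW1516 (0.0779) and for Plat with retinoic acid (0.0751), and on the arrays compared alone for Tgm2 with GW1516 (0.335).

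Calls were gained for Tgm2 with palmitate (robust prior 0.0423, array weights 0.00575, dim genes left out 0.0238), for Tgm2 between retinoic acid and GW1516 (array weights 0.0142, dim genes left out 0.0356) and for the Tgm2 difference between the palmitate and retinoic acid effects (arrays compared alone 0.0337, array weights 0.0163, dim genes left out 0.0421). They were also gained for Plat with TTNPB (arrays compared alone 0.0320, quantile normalization 0.0187, array weights 0.0426) and with GW1516 (quantile normalization 0.0227, array weights 0.0165, dim genes left out 0.0453). Without GW1516 replicate 3 and palmitate replicate 2 together, p was 0.0419, 0.0462 and 0.0163 for the same 3 Tgm2 results and 0.0147 and 0.0283 for the same Plat results. Leaving out dim genes changed both the number of genes adjusted over and the unadjusted p. The cause of these shifts was not tested.

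Sign changes were seen only for Plat where no difference was called. They occurred with palmitate (quantile normalization 0.991, array weights 0.956, and 1 without both arrays named above), between retinoic acid and TTNPB (centred arrays 0.991, array weights 0.902), between retinoic acid and GW1516 (quantile normalization 0.982, without both arrays 0.996) and between TTNPB and GW1516 (array weights 0.895, without both arrays 0.969). Leaving out 1 array gave 0.00751 (without GW1516 replicate 3) to 0.0674 for Tgm2 with GW1516, 0.0434 to 0.359 for Tgm2 between retinoic acid and GW1516, and 0.0210 to 0.213 for Plat with retinoic acid. For Plat it gave 1 to 1 with palmitate, 0.827 to 1.000 between retinoic acid and TTNPB, 0.790 to 0.997 between retinoic acid and GW1516 and 0.867 to 0.977 between TTNPB and GW1516.

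The replicate block changed no call of either gene (0.000293 for Tgm2 and 0.0387 for Plat with retinoic acid). Same-numbered arrays did not deviate together, with correlations of their deviations from -0.280 to 0.212 in charcoal serum and from -0.107 to 0.0798 in full medium, so the numbers were not taken as pairs. Of 360 counts of called genes over 5 lists and 4 ligands, 297 stayed within 1.5 times the reported count and 63 did not, these being counts of 6 or fewer. With 3 arrays a group, changes near the size of their standard error cannot be called.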
